A study of Mus musculus with 8 samples.

Results

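The respiratory chain of the inner mitochondrial membrane was examined in alveolar epithelial cells of type I (AECI) and type II (AECII) sorted from mouse lungs at E18.5. Its members were all genes whose symbol begins with Ndufa, Ndufb, Ndufc, Ndufs or Ndufv (complex I), is Sdha, Sdhb, Sdhc or Sdhd (complex II), begins with Uqcr (complex III), begins with Cox4, Cox5, Cox6, Cox7 or Cox8 (complex IV), or begins with Atp5 (complex V). Pseudogene symbols and the Ndufaf assembly factors were left out. This gave 83 of the 24306 genes on the array: 37 of complex I, 4 of complex II, 8 of complex III, 17 of complex IV and 17 of complex V. Ndufa4 and Ndufa4l2 are counted with complex I by their symbol, although the Ndufa4 protein is now placed in complex IV.

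The series held 8 single-colour arrays, 2 for each of 4 groups. Experimental AECII and experimental AECI (titled Exp_Fgfr2bflox) came from embryos of pregnant females given tamoxifen at E14.5 and E15.5. Control AECII and control AECI came from embryos of a separate set of females handled in the same way, so that genotype and litter cannot be told apart. The series title places the inhibition of Fgfr2b signalling, an epithelial FGF receptor pathway, in cells that express Sftpc. No source used here gives the Cre driver, the full genotype of the controls, how the cells were gated or how many embryos were pooled. The design text calls the replicates biological, and with 2 per group the p-values measure only the spread between these samples.

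Complexes I to IV pass electrons to oxygen and complexes I, III and IV move protons out of the matrix. Complex II, succinate dehydrogenase, is also a step of the TCA cycle. Complex V, the ATP synthase, uses the returning protons to make ATP. Most subunits are encoded in the nucleus and a few in mitochondrial DNA, and AECII, which make and secrete surfactant, are known as the more mitochondria-rich of the alveolar epithelial cells. Of the 13 mitochondrially encoded subunits, 0 were measured under their symbols, so the values below concern nuclear genes only.

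Values are log2 signals normalized between arrays by the authors, and a difference of 1 is a 2-fold change. Across genes, the 2 arrays of a group had a Pearson r between 0.951 and 0.978. The members' median SD between replicates was 0.125 in experimental AECII, 0.114 in control AECII, 0.133 in experimental AECI and 0.105 in control AECI. In the same order of groups, the median SD was 0.228, 0.232, 0.320 and 0.348 over all genes, and 0.110, 0.112, 0.149 and 0.157 over genes with a mean above 9, so bright genes at large had a spread like that of the members. The sorted populations carried their own markers: the mean of 12 AT1 markers was 9.50 to 10.2 on AECII arrays and 12.8 to 13.1 on AECI arrays, and that of 12 AT2 markers was 12.9 to 13.1 on AECII arrays and 11.9 to 12.1 on AECI arrays. Sftpc, the surfactant protein C gene, read 15.8 to 15.88 on AECII arrays and 15.45 to 15.65 on AECI arrays, so this AECII marker was bright in both populations. Control AECI replicate 1 and control AECII replicate 2 had the sex-linked transcripts of a male pattern, unlike the other 6 arrays, and values without them are given beside the results they moved most.

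Most members were bright. Of the 83, 79 had an 8-array mean above the median of all spots (5.18), and these means ran from 7.39 (Cox7a1) to 14.7 (Atp5a1, the catalytic-sector alpha subunit of ATP synthase). The 4 others were isoforms known from other tissues or low oxygen: Cox7b2 (1.60 to 4.47 over the 8 arrays), Cox8b (1.55 to 3.28), Cox8c (1.52 to 2.57) and Ndufa4l2 (3.51 to 5.39). The lower quartile of all spots was 3.07, no detection call was used, and differences of these 4 genes have no order. Levels of different probes are not compared with each other here, since probe signals depend on the probe.

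In the plot of all members by array, the 2 experimental AECII arrays had the highest median deviations of the 8 (0.17 and 0.28). Over all genes the same 2 arrays read 0.02 and 0.04.

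**Figure D1:**
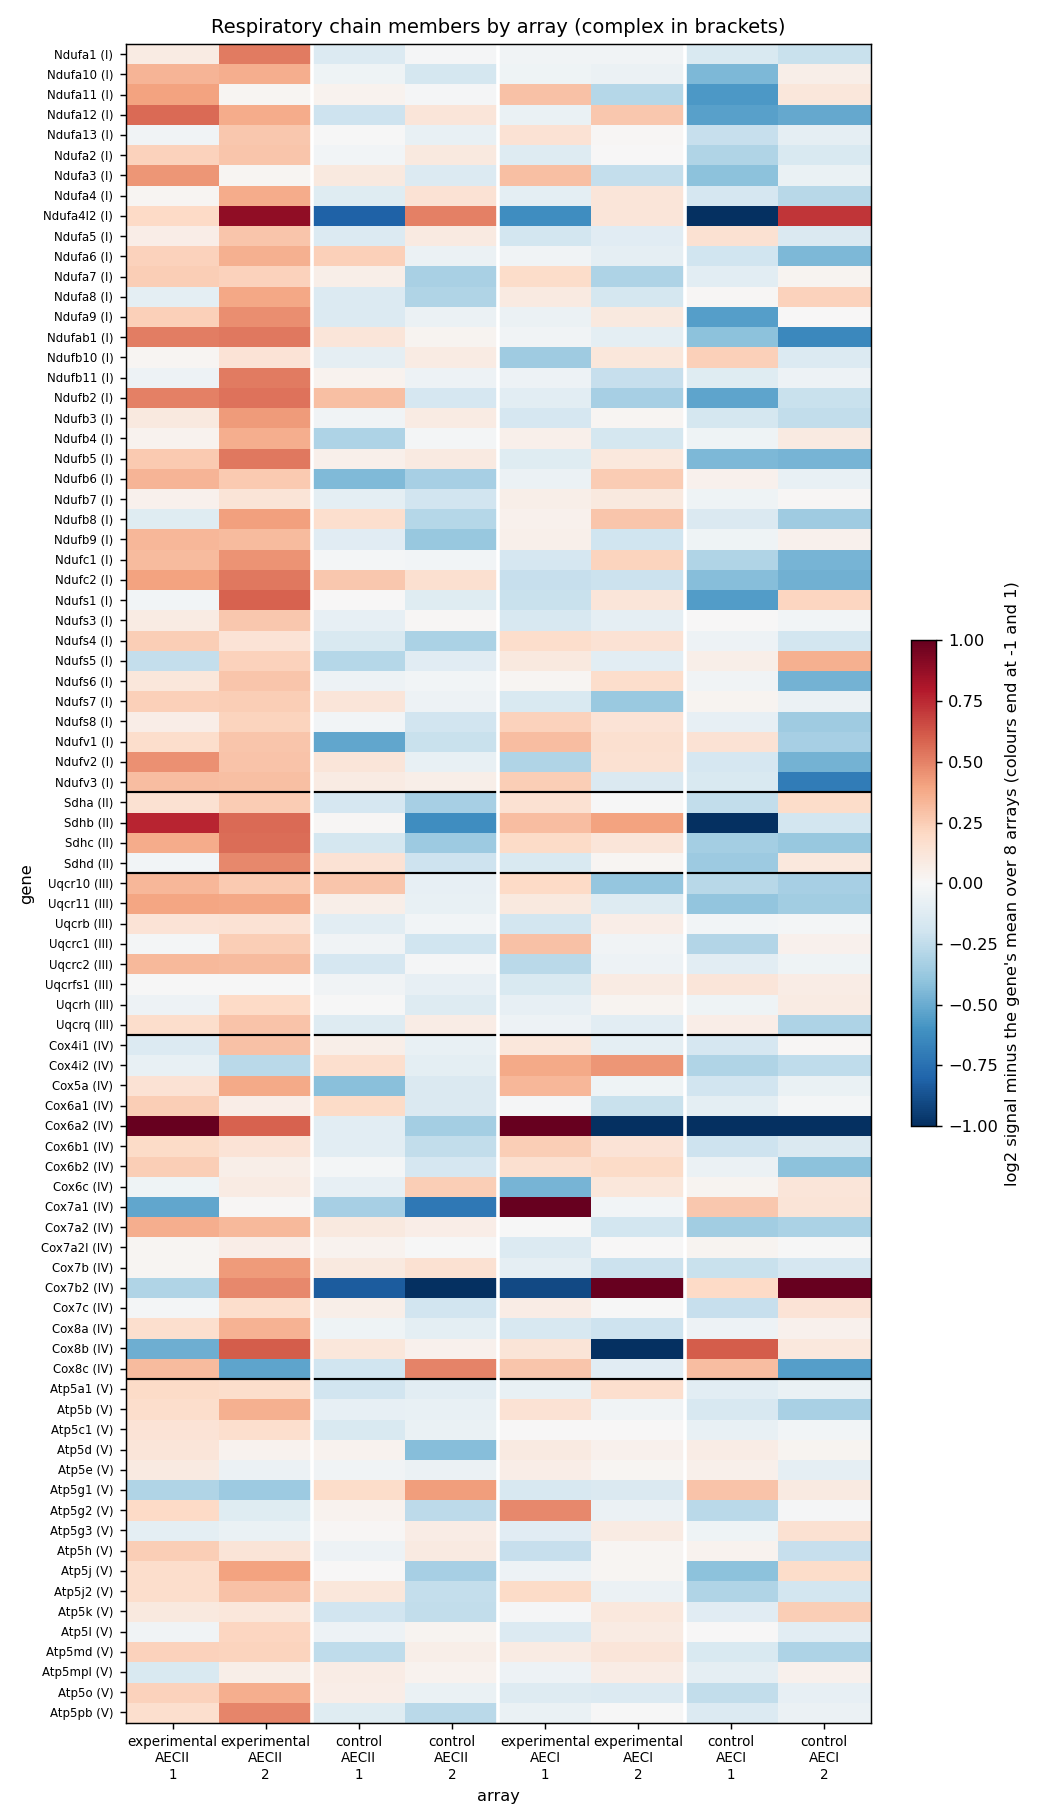
Each row is 1 of 83 members, grouped by complex, and each column 1 of 8 arrays; colour gives the log2 signal minus the gene's mean over the 8 arrays, with colours ending at -1 and 1. The experimental AECII columns had median deviations of 0.17 and 0.28, the highest of the 8 columns.

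The members' median deviation from their own 8-array means summarises each array. It was 0.17 and 0.28 on the experimental AECII arrays, -0.04 and -0.08 on the control AECII arrays, -0.04 and 0.00 on the experimental AECI arrays, and -0.14 and -0.07 on the control AECI arrays. The 2 experimental AECII arrays stood above the other 6, and the control AECII arrays overlapped with the control AECI arrays. Over all genes the same quantity lay between -0.03 and 0.04. The complexes did not share one pattern. Complex I read 0.23 and 0.31 on experimental AECII arrays, -0.04 and -0.05 on control AECII arrays, -0.04 and 0.00 on experimental AECI arrays, and -0.15 and -0.15 on control AECI arrays. Complex III read 0.15 and 0.26 on the experimental AECII arrays, against -0.08 to -0.03 on the other 6. In complex IV the experimental AECII arrays (0.02 and 0.18) lay above the control AECII arrays (-0.02 and -0.10), while the experimental AECI arrays (0.12 and -0.04) overlapped with the control AECI arrays (-0.10 and -0.02).

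**Figure D2:**
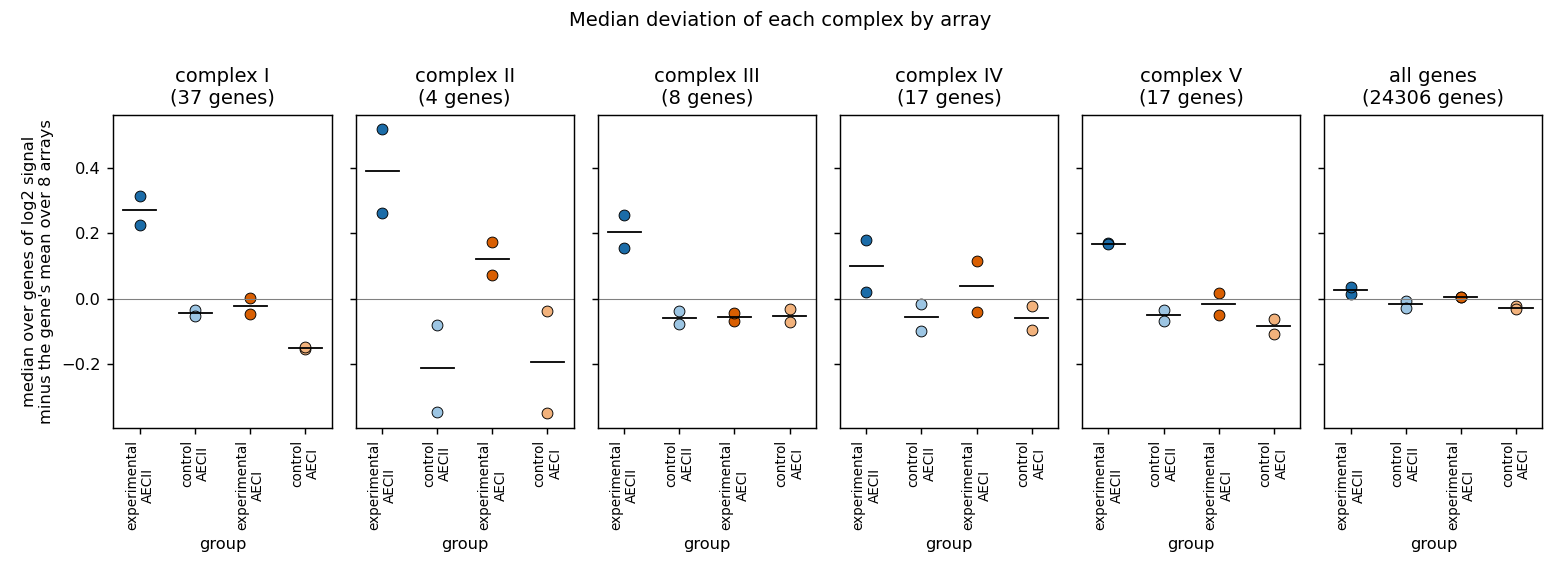
Points are arrays and lines group means of the median, over the genes of a complex, of log2 signal minus each gene's 8-array mean. In complexes I, III and V both experimental AECII arrays lie above the other 6; in complex II both experimental groups lie above both control groups.

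The first comparison sets the respiratory chain of experimental AECII against that of control AECII. No member passed an adjusted p of 0.05 (limma with Benjamini-Hochberg adjustment over all genes), where 0.0% of all genes were called higher and 0.0% lower. At an unadjusted p under 0.05 there were 3 members (3.61%), against 8.24% of all genes. The differences were small and mostly of one sign. They were above 0 for 76 of 83 members (91.6%, against 55.4% of all genes), with a median of 0.26 against 0.07 for all genes and 0.08 for the 13650 genes with a mean above the median of all spots. In 51 members (61.4%, against 27.3% of all genes) both experimental arrays were above both control arrays, and in 2 members (2.41%, against 19.8%) both were below. Of the 13650 genes with a mean above the median of all spots, 57.9% had a difference above 0. Both experimental arrays were above both controls in 4529 of these genes and below in 3058. For the median member, the 95% interval of a difference between 2 groups reached 0.60 to either side of it, so a shift of this size could not be resolved for a single gene.

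On their brightest spots all 37 complex I members had a difference above 0 in AECII, with a median of 0.25 (range 0.08 to 0.69). The 8 complex III members did too (median 0.22), as did the 4 of complex II (median 0.59). Complex V had a median of 0.27, with 14 of 17 above 0, and complex IV a median of 0.15, with 13 of 17 above 0. Other spots did not always share these signs. Among 27 members with several spots above the median of all spots, all spots had the same sign for 19 in AECII and 17 in AECI. In complex I such other spots were below 0 in AECII for Ndufs3 (-0.71), Ndufa10 (-0.38), Ndufa3 (-0.25) and Ndufa13 (-0.11).

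The members of smallest p in AECII were Sdhc, Ndufb6 and Atp5g1. Sdhc, one of the membrane anchors of succinate dehydrogenase, read 12.04 and 12.23 in experimental AECII, against 11.50 and 11.31 in control AECII. The groups did not overlap, and the difference was 0.73 (SE 0.226, adjusted p = 0.56, limma). Ndufb6, an accessory subunit of the membrane arm of complex I, read 10.72 and 10.64 in experimental AECII, against 9.93 and 10.05 in control AECII (difference 0.69, SE 0.234). Both control arrays were also below all 4 AECI arrays (10.30 to 10.63) for this gene. Neither difference passed the adjusted threshold, and the third gene ran the other way.

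Atp5g1 encodes one form of the c subunit, whose ring turns in the membrane part of ATP synthase. Its brightest spot read 11.39 and 11.33 in experimental AECII, against 11.87 and 12.10 in control AECII (difference -0.63, SE 0.229, adjusted p = 0.57, limma). In experimental AECI it read 11.53 and 11.54, against 11.97 and 11.78 in control AECI (difference -0.34). It was the only member with both experimental arrays below both control arrays in both populations. Its 2 other spots, with means of 8.56 and 7.94, differed by 0.35 and 0.75 in AECII and by 0.28 and 0.29 in AECI, so the direction for this gene was not the same on all its spots. Atp5g2, which encodes the same mature c subunit, had 10 spots with means of 11.2 to 11.8, and these differed by 0.15 to 0.28 in AECII and by 0.13 to 0.35 in AECI.

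In AECI the same genotype comparison gave 0 members past the adjusted threshold, with 0.0% of all genes called higher and 0.00411% lower. At an unadjusted p under 0.05 there were 3 members, against 12.4% of all genes. The median difference was 0.12, against 0.04 for all genes, and 58 of 83 members (69.9%, against 52.6% of all genes) were above 0. In 30 members (36.1%, against 21.2% of all genes) both experimental arrays were above both controls, and in 4 (4.82%, against 18.6%) both were below. Of the 13650 genes with a mean above the median of all spots, both were above in 3152 and below in 2804. Medians were 0.16 for complex I, 0.31 for complex II, 0.01 for complex III, 0.09 for complex IV and 0.05 for complex V. Without both arrays of male pattern they were 0.095 for complex I, 0.022 for complex III, 0.014 for complex IV and 0.034 for complex V. The median of complex II ran from 0.18 to 0.42 over the alternative settings, that one included.

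Among the members whose arrays separated by genotype in both populations, Sdhb had the largest differences. It encodes the iron-sulfur subunit of succinate dehydrogenase. It read 9.94 and 9.75 in experimental AECII, against 9.18 and 8.56 in control AECII, a difference of 0.97 (SE 0.412, adjusted p = 0.62, limma). It read 9.48 and 9.58 in experimental AECI, against 7.93 and 8.99 in control AECI, a difference of 1.07 (SE 0.412, adjusted p = 0.37, limma). All 4 experimental arrays lay above all 4 control arrays, and the 2 control AECI arrays were far apart. Without control AECI replicate 1, one of the arrays of male pattern, the AECI difference was 0.54 (adjusted p = 0.54, limma), and without control AECI replicate 2 it was 1.60 (adjusted p = 0.26, limma). The size rested on the brightest spot: on its other spot, with a mean of 8.05, Sdhb differed by 0.46 in AECII and 0.17 in AECI. Sdhc, on its single spot, read 11.86 and 11.79 in experimental AECI, against 11.33 and 11.29 in control AECI (difference 0.52, SE 0.226). For Sdhc too all 4 experimental arrays were above all 4 control arrays. Sdha, the flavoprotein subunit, differed by 0.46 in AECII and 0.11 in AECI. Sdhd, the other membrane anchor, differed by 0.26 in AECII and 0.06 in AECI. In AECI the groups of both genes overlapped. Sdha read 10.32 and 10.17 in experimental AECI, against 9.93 and 10.36 in control AECI. Sdhd read 11.825 and 12.003, against 11.618 and 12.088. For both genes control AECI replicate 2, not of male pattern, was above both experimental AECI arrays.

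Over both populations together, Sdhc (0.63, SE 0.160, adjusted p = 0.27) and Sdhb (1.02, SE 0.291, adjusted p = 0.31, limma) had the smallest p of the members. Without both arrays of male pattern Sdhb differed by 0.60 (adjusted p = 0.47, limma). No member passed the threshold, where 0.0% of all genes were called higher and 0.00411% lower, and 7 had an unadjusted p under 0.05 (8.43%, against 12.1% of all genes). In 13 members all 4 experimental arrays were above all 4 control arrays (15.7%, against 2.47% of all genes), and in 1, Atp5g1, all 4 were below (1.2%, against 2.21%). Of the 13650 genes with a mean above the median of all spots, 420 had all 4 above and 390 all 4 below. Members whose 2 experimental arrays were above both controls in AECI and in AECII separately numbered 25 (30.1%, against 6.94% of all genes), and 1, Atp5g1, had both below in each (1.2%, against 4.77% of all genes). They were 14 of complex I, 2 of complex II (Sdhb and Sdhc), 1 of complex III (Uqcr11), 4 of complex IV and 4 of complex V. The 2 genotype comparisons share no arrays. The sample titles do not say whether AECI and AECII were sorted from the same lungs, so the comparisons may not be independent. Across the 83 members their differences had a Pearson r of 0.47 and a Spearman rho of 0.32, against 0.14 and 0.10 across all genes. These values describe genes that were measured on the same arrays. The 83 include Cox6a2, with differences of 1.25 in AECI and 2.00 in AECII and a wide spread between replicates. They also include the 4 members with a mean below the median of all spots. No correlation was taken without these genes.

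**Figure D3:**
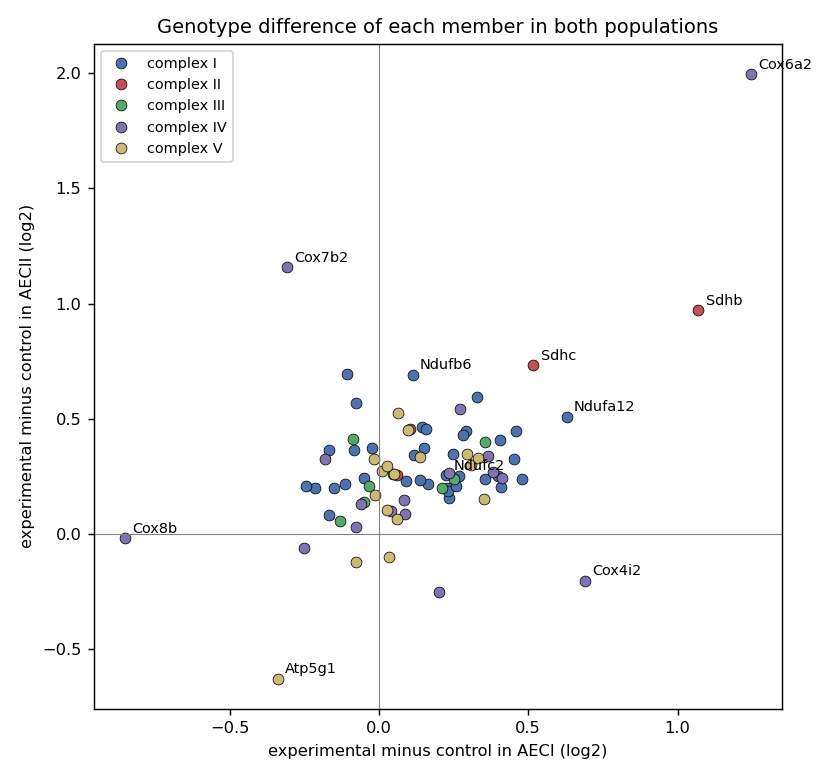
Each point is 1 of 83 members, placed by its experimental minus control log2 difference in AECI (horizontal) and AECII (vertical), coloured by complex. Most points lie above 0 on the vertical axis (76 of 83); Sdhb, Sdhc and Cox6a2 lie high on both axes, Atp5g1 low on both, and Cox4i2 right of and below 0.

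Complex I held 14 of the 25 members that separated upward in both populations. Ndufa12, a peripheral-arm accessory subunit, read 11.38 and 11.18 in experimental AECII, against 10.61 and 10.94 in control AECII (difference 0.51). In experimental AECI it read 10.74 and 11.09, against 10.27 and 10.30 in control AECI (difference 0.63, SE 0.256, adjusted p = 0.40, limma). Ndufab1, the mitochondrial acyl carrier protein, which also serves fatty acid and lipoic acid synthesis in the matrix, differed by 0.45 in AECII and 0.46 in AECI, and neither pair of groups overlapped.

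Complex IV has several pairs of isoforms, which were not tested against each other. Cox4i1 and Cox4i2 are alternative forms of subunit 4, the second known for its expression in lung and at low oxygen. Cox4i2 read 11.003 and 10.81 in experimental AECII, against 11.24 and 10.98 in control AECII (difference -0.20, and -0.34 without both arrays of male pattern). In experimental AECI it read 11.46 and 11.52, against 10.78 and 10.82 in control AECI (difference 0.69, SE 0.232, adjusted p = 0.33, limma). The arrays overlapped in AECII and separated in AECI. The genotype difference in AECII minus that in AECI was -0.89 (95% interval -1.69 to -0.10, adjusted p = 0.54, limma), and this contrast called 0.0% of all genes in either direction. It was the only member of unadjusted p under 0.05 in that contrast (1 of 83, against 8.62% of all genes). Cox4i1 read 13.65 and 14.08 in experimental AECII, against 13.85 and 13.71 in control AECII, and 13.90 and 13.69 in experimental AECI, against 13.62 and 13.80 in control AECI. Its groups overlapped in both populations, with differences of 0.09 and 0.09 (95% interval -0.54 to 0.72 in AECI).

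Cox6a2, the form of subunit 6a known from heart and skeletal muscle, had the largest SD between replicates of all members in both experimental groups (1.67 in AECII and 2.18 in AECI). It read 11.41 and 9.04 in experimental AECII, against 8.35 and 8.12 in control AECII, and 9.85 and 6.76 in experimental AECI, against 6.94 and 7.18 in control AECI. Replicate 1 was the high one in both experimental groups. The differences, 2.00 in AECII and 1.25 in AECI, had an SE of 1.12 and did not pass the test (adjusted p = 0.68 in AECII and 0.69 in AECI, limma). Cox6a1, the widely expressed form, lay between 13.72 and 14.19 on the 8 arrays. Cox7a1, the other muscle form, read 6.87 and 7.40 in experimental AECII, against 7.06 and 6.67 in control AECII, and 8.58 and 7.37 in experimental AECI, against 7.66 and 7.52 in control AECI, with 1 high array, experimental AECI replicate 1. The 8 cardiac muscle markers had a mean of 6.34 to 6.83 in experimental AECII, 6.01 to 6.21 in control AECII, 6.64 to 7.53 in experimental AECI and 5.99 to 7.29 in control AECI. Their median deviation was highest on experimental AECI replicate 1 (0.95), then on control AECI replicate 2 (0.42) and experimental AECII replicate 1 (0.38). On control AECI replicate 2, Cox6a2 read 7.18 and Cox7a1 7.52. Myh7 read 12.2 to 13.6 on every array. Tnnt2 was below the lower quartile of spots on both control AECII arrays (2.62 and 1.67) and on experimental AECII replicate 2 (2.73). The part of muscle RNA in these 2 isoforms was not tested.

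Other subunits of these complexes had smaller spreads. Cox6b1, the widely expressed form of subunit 6b, read 10.89 and 10.83 in experimental AECII, against 10.60 and 10.45 in control AECII, and 10.95 and 10.84 in experimental AECI, against 10.49 and 10.55 in control AECI. Cox6b2, the form known from testis, read 10.54 and 10.35 in experimental AECII, against 10.28 and 10.12 in control AECII, and 10.45 and 10.49 in experimental AECI, against 10.23 and 9.88 in control AECI. Both forms were higher on all experimental arrays within each population, and neither passed the test (adjusted p = 0.72 and 0.83 in AECII and 0.54 and 0.54 in AECI, limma). Cox7a2l, which serves supercomplexes of the chain, lay between 14.16 and 14.36 on the 8 arrays, with differences of 0.03 in AECII and -0.08 in AECI. Atp5g3, the third gene for the c subunit, differed by -0.12 in AECII and -0.08 in AECI. Ndufa4 differed by 0.18 in AECII and 0.23 in AECI. Uqcrh, the hinge subunit of complex III, lay between 13.67 and 14.002, and Uqcrc1, one of its core subunits, between 7.96 and 8.54.

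**Figure D4:**
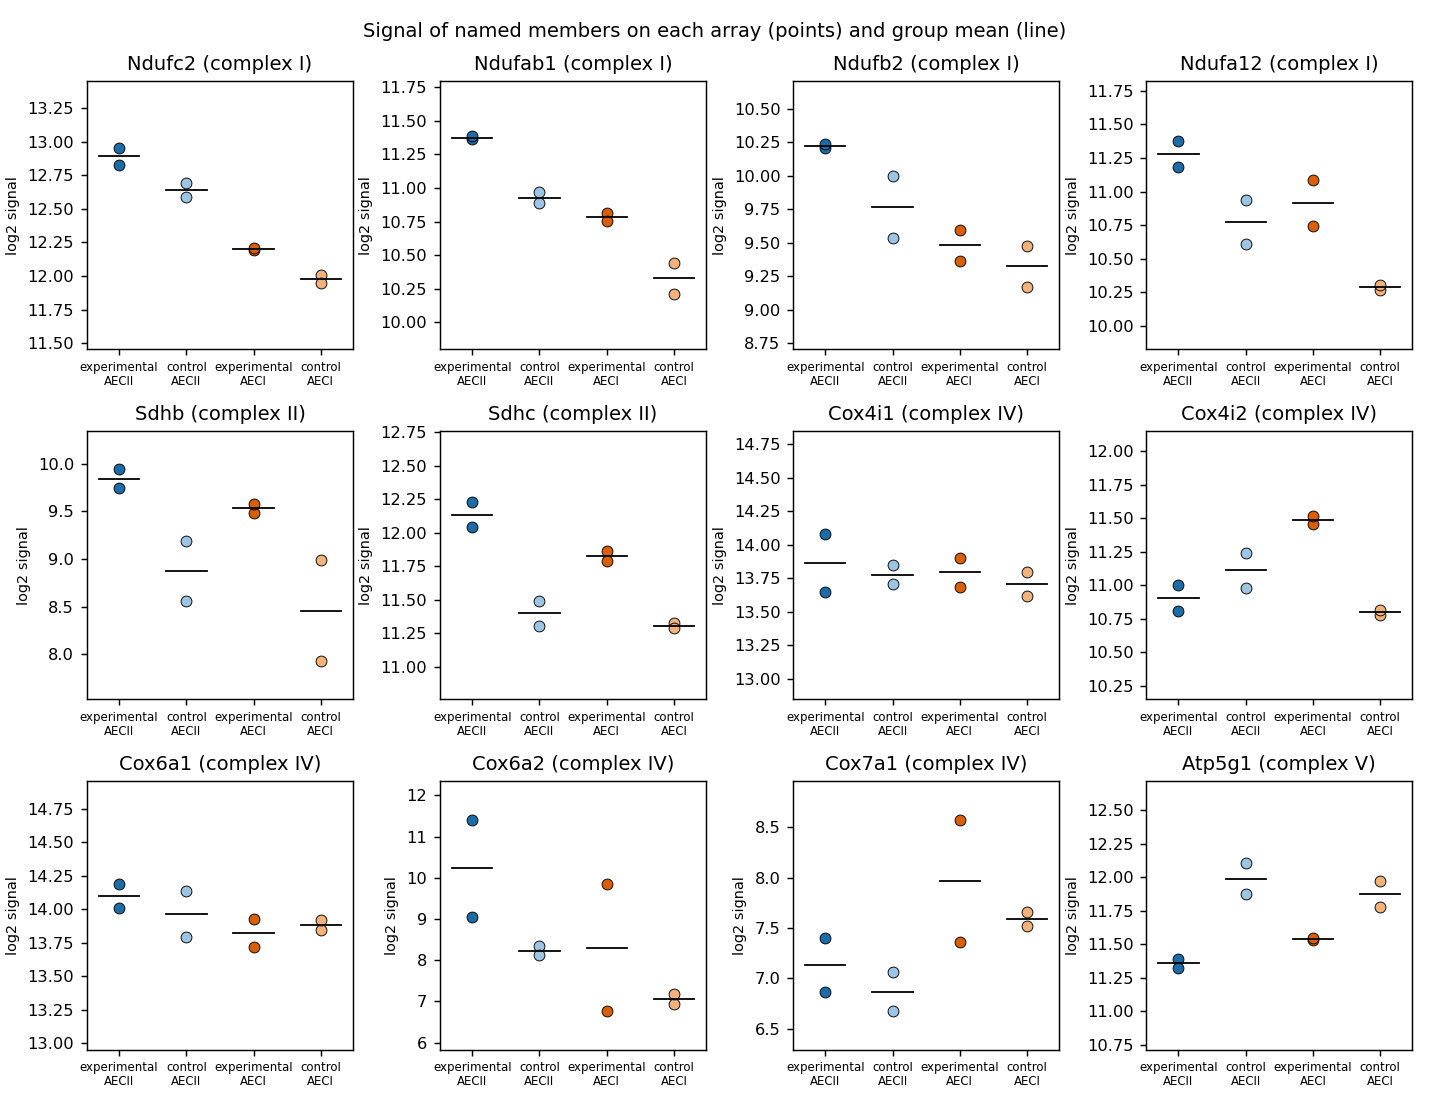
Points are the log2 signals of 12 named members on each of 8 arrays and lines are group means; vertical ranges differ between panels and do not start at 0. Ndufc2 separates AECII from AECI, Sdhb and Sdhc separate experimental from control samples, and Cox6a2 has 1 high array in each experimental group.

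The comparison of AECII with AECI gave the only call among the members. Ndufc2, a small subunit of the membrane arm of complex I, read 12.83 and 12.96 in experimental AECII, against 12.20 and 12.21 in experimental AECI. It read 12.69 and 12.59 in control AECII, against 12.004 and 11.95 in control AECI. All 4 AECII arrays were above all 4 AECI arrays, and over both genotypes the difference was 0.68 (SE 0.154, 95% interval 0.30 to 1.05, adjusted p = 0.0498, limma), a 1.60-fold change. This 1 of 83 members compares with 4.69% of all genes called higher and 3.62% called lower, a higher share of all genes than of the members. The call was at the threshold: without the 2 arrays of male pattern the difference was 0.72 and its adjusted p 0.193, and no member was called when any 1 of the 8 arrays was left out. Within the genotypes the difference was 0.69 in experimental lungs (adjusted p = 0.14, limma) and 0.66 in control lungs (adjusted p = 0.20, limma).

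Ndufab1 was next, at 11.37 and 11.38 in experimental AECII, against 10.82 and 10.76 in experimental AECI, and 10.97 and 10.88 in control AECII, against 10.44 and 10.21 in control AECI. Again no AECII array reached down to an AECI array (difference 0.60 over both genotypes, SE 0.158, adjusted p = 0.074, limma). Ndufb2, another membrane-arm subunit, differed by 0.59 (SE 0.192, adjusted p = 0.12, limma), with 0.74 in experimental and 0.44 in control lungs. Cox7a2, the widely expressed form of subunit 7a, differed by 0.42, and Cox7a1 by -0.78 (adjusted p = 0.19, limma), its arrays overlapping. Ndufb5, also of the membrane arm, differed by 0.53 in control lungs (adjusted p = 0.33, limma).

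As a whole the members lay a little higher in AECII than in AECI. Over both genotypes the median difference was 0.13, against -0.02 over all genes and 0.03 over the genes above the median of all spots. There 63 of 83 members were above 0 (75.9%, against 48.3% of all genes). The shift was 0.21 in experimental lungs and 0.08 in control lungs, where all genes had medians of 0.01 and 0.00. Above 0 were 68 of 83 in experimental lungs (81.9%, against 50.4% of all genes) and 50 of 83 in control lungs (60.2%, against 50.3%). Without both arrays of male pattern the shift in control lungs was 0.046. These 2 comparisons had 0 members called by limma, against 1.28% of all genes higher and 1.27% lower in experimental lungs and 1.3% higher and 1.53% lower in control lungs. At an unadjusted p under 0.05 there were 4 members in experimental lungs (21.6% of all genes) and 2 in control lungs (16.7%). Arrays did not overlap for 42 members higher and 2 lower in experimental lungs (28.2% and 26.7% of all genes), and for 23 higher and 9 lower in control lungs (23.5% and 22.1%). Of the 13650 genes with a mean above the median of all spots, 4970 were higher and 4043 lower in experimental lungs. In control lungs 3937 of them were higher and 3210 lower. In 5 members all 4 AECII arrays were above all 4 AECI arrays (6.02%, against 9.01% of all genes), and in 0 all 4 were below (6.85% of all genes). Over both genotypes the median was 0.22 for complex I (31 of 37 above 0), 0.20 for complex II, 0.14 for complex III, 0.06 for complex IV and 0.05 for complex V. These values use the brightest spots. Among 27 members with several spots above the median of all spots, all spots had the same sign for 17 over both genotypes. The number was 16 in experimental and 13 in control lungs. At an unadjusted p under 0.05 there were 6 members over both genotypes, against 24.8% of all genes. The median difference between the genotype effects in AECII and AECI was 0.15, against 0.03 for all genes, with 55 of 83 above 0, and no test was made of the members as a set.

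Promoters are shown for the 3 members that the comparisons above single out: Ndufc2 carried the only call, Sdhb had the largest genotype differences that separated the arrays in both populations, and Atp5g1, on its brightest spot, was the 1 member separated downward in both. Each run is the 250 bases before the start used in the RefSeq table (GRCm38.p6), 5′ to 3′ on the gene's strand, in lower case with motif matches in capitals. Ndufc2 lies at chr7:97399753-97400002 (+ strand), Sdhb at chr4:140961021-140961270 (+ strand) and Atp5g1 at chr11:96075632-96075881 (- strand). For Atp5g1 this start lies within the annotated gene, whose outermost start is upstream of it, so the last 63 bases of the run, CACGTG among them, are inside the gene.
Ndufc2: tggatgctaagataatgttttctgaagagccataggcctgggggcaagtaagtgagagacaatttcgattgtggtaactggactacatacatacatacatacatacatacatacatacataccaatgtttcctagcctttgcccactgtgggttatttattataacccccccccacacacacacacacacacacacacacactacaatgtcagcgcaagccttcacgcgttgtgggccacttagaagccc
Sdhb: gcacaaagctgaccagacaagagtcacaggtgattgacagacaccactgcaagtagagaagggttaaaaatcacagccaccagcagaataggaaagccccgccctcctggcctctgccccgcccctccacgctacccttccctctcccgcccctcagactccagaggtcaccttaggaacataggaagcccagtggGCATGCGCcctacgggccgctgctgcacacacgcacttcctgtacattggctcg
Atp5g1: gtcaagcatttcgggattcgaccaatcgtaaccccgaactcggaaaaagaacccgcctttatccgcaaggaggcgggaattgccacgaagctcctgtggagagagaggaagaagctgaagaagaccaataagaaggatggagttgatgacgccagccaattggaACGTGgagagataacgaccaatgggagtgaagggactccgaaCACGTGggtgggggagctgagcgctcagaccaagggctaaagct
The capitals mark 1 match to a core site of NRF1 (a transcription factor known for nuclear-encoded mitochondrial genes) in Sdhb and 3 matches to the hypoxia response core in Atp5g1, 2 of them overlapping on opposite strands in CACGTG. None of the 4 motifs searched was found in the Ndufc2 run.

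Across the 300 bases around the start (250 before, 50 after), 68 of the 83 members had a promoter in the RefSeq table. The NRF1 core site GCATGCGC, on either strand, was in 14.7% of these 68 genes, against 3.05% of the 27025 genes of the table. The ETS core CCGGAA was in 38.2%, against 16.7%, the YY1 motif in 7.35%, against 0.995%, and the hypoxia response core ACGTG in 25% of members, against 21.8%. No motif contains another, both strands were searched for each, and these matches describe letters, not binding.

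Other mitochondrial gene lists were set beside the members, all chosen with earlier results of these data known. For experimental against control AECII, median differences were 0.26 for 47 assembly factors, 0.34 for 78 mitochondrial ribosomal proteins, 0.36 for 17 TCA cycle genes and 0.27 for 17 fatty acid oxidation genes, against 0.16 for 20 glycolysis genes, 0.08 for 82 cytosolic ribosomal proteins and 0.07 for all genes. None of these lists had a gene called by limma in either genotype comparison, and at an unadjusted p under 0.05 they had 1, 6, 2, 3, 0 and 1 genes in AECII in the order given, where 8.24% of all genes did. In AECI the medians were 0.14, 0.15, 0.16 and 0.19 for the 4 mitochondrial lists in that order, against -0.03 for glycolysis and 0.03 for the cytosolic ribosome. The 14 regulators of mitochondrial biogenesis had medians of 0.12 in AECII and -0.01 in AECI. Differences between lists were not tested.

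Between AECII and AECI over both genotypes, some genes of these other lists were called, where 4.69% of all genes were called higher, 3.62% lower and 24.8% had an unadjusted p under 0.05. Higher in AECII were Echs1 (1.32, adjusted p = 0.0103) and Hadh (1.13, adjusted p = 0.0199), both of fatty acid beta-oxidation, 2 of 17 genes of that list. Of the assembly factors, 2 of 47 were higher: Cox18 (1.41, adjusted p = 0.0287), which inserts a complex IV subunit into the membrane, and Sdhaf1 (0.76, adjusted p = 0.0391), which serves iron-sulfur insertion into Sdhb. Of 14 regulators of mitochondrial biogenesis, 2 were higher: Ppargc1a (1.47, adjusted p = 0.0437), the coactivator PGC-1alpha, and Gabpb1 (0.96, adjusted p = 0.0383), a subunit of the ETS-family factor NRF-2. In glycolysis 1 of 20 was higher, Ldhb (1.44, adjusted p = 0.00629), and 2 were lower, Pfkp (-2.45, adjusted p = 0.00341) and Eno1 (-1.18, adjusted p = 0.0231). Of 78 mitochondrial ribosomal proteins 1 was higher and 1 lower. Of 17 TCA cycle genes 0 were called, with 8 at an unadjusted p under 0.05. All these adjusted p-values are from limma.

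**Figure D5:**
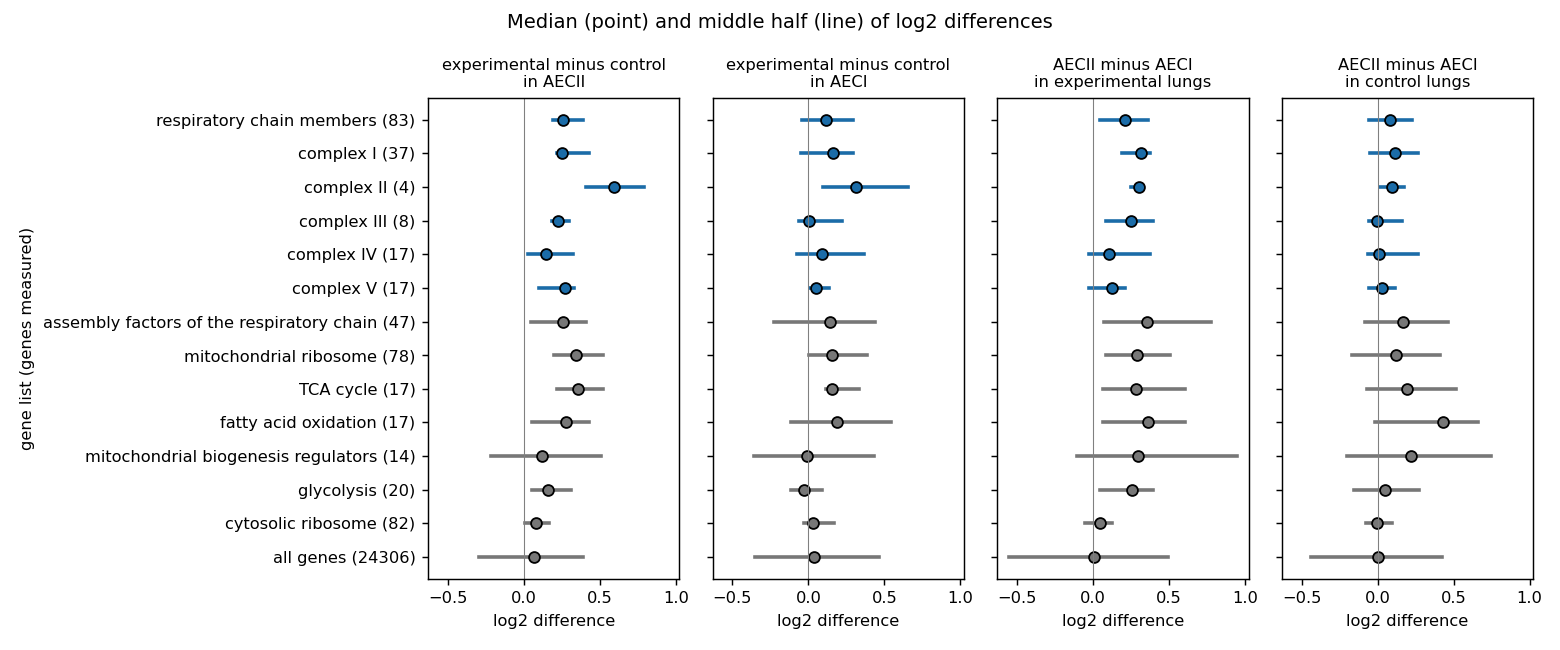
Points are median log2 differences and lines span the lower to the upper quartile of the genes, for the members, the 5 complexes (blue) and the comparison lists and all genes (grey), in 4 comparisons. The median of the 83 members was 0.26, 0.12, 0.21 and 0.08 from the left panel to the right, against 0.07, 0.04, 0.01 and 0.00 for all genes.

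The levels of marker lists differed between these groups. The mean of the 12 ciliated cell markers was 10.3 to 10.7 in experimental AECII, 9.25 to 9.47 in control AECII, 6.78 to 7.54 in experimental AECI and 6.65 to 6.70 in control AECI; in AECII against AECI 9 of 12 were called higher over both genotypes (4.69% of all genes), while Mcidas read 13.9 to 14.4 on every array. Foxj1, the regulator of motile cilia, read 11.60 and 10.72 in experimental AECII, against 10.21 and 9.83 in control AECII. The 8 club cell markers averaged 10.4 to 10.8 in experimental AECII, 9.84 to 9.89 in control AECII, 8.98 to 9.10 in experimental AECI and 8.21 to 8.25 in control AECI, and 5 of 8 were called higher in AECII. The 3 measured erythroid markers averaged 7.05 to 7.46 in experimental AECII, against 10.1 in control AECII, and 5.24 to 6.004 in experimental AECI, against 8.91 to 9.15 in control AECI. The 9 measured cell cycle markers averaged 8.08 to 8.12 in experimental AECII, against 7.46 in control AECII, and 8.66 to 9.15 in experimental AECI, against 7.67 to 7.70 in control AECI. The 8 mesenchymal markers averaged 8.39 to 8.58 in experimental AECII, against 7.76 to 8.07 in control AECII, and 9.86 to 9.98 in experimental AECI, against 8.88 to 9.53 in control AECI. The 12 AT1 markers, given above over both genotypes, averaged 9.50 to 9.96 in experimental AECII, against 10.1 to 10.2 in control AECII, and 12.8 to 12.9 in experimental AECI, against 13.06 to 13.1 in control AECI. The 4 endothelial markers averaged 6.05 to 6.28 in experimental AECII, against 5.47 to 5.49 in control AECII, and 4.83 to 4.87 in experimental AECI, against 5.13 to 5.62 in control AECI. The 4 leukocyte markers averaged 7.92 to 8.26 in experimental AECII, against 8.55 to 8.64 in control AECII, and overlapped in AECI. The 4 mesothelial markers averaged 4.75 to 4.996 in experimental AECII, against 5.30 to 5.48 in control AECII, and 8.30 to 8.37 in experimental AECI, against 7.62 to 8.24 in control AECI. In AECI these 4 did not share a direction. Both experimental arrays were above both controls for 2 of them (Upk3b and Lrrn4) and below for 2 (Msln and Wt1). The part of these cells in the members' values was not tested, and fewer cells of a type cannot be told apart from less RNA per cell.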

How the data were processed

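Each file holds log2 values per spot, normalized between arrays by the authors before deposit; limma is named in the submitters' processing notes, and no source used here gives its version or the background correction. Amplified cDNA (2 µg) carried Cy5. Precision is set by having 2 arrays a group.

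Of 62976 spots, 43941 had 1 gene symbol. Symbols were updated with RefSeq (GRCm38.p6), 463 spots of them by synonym; Atp5md and Atp5mpl entered the members and Atp5s and Atp5sl left them. The spot of highest 8-array mean stood for a gene. Groups and replicate numbers came from the titles.

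limma 3.58.1 (R 4.3.3) was fitted with 4 group means over 8 arrays (4 residual and 2.26 prior degrees of freedom), with 7 contrasts and Benjamini-Hochberg adjustment over 24306 genes. The steps were tested on simulated data with planted differences larger than most of those seen in the members. Recovery of shifts of the members' size was not tested. Named members were those of smallest p in each contrast, the brightest and dimmest of a complex, and the isoforms with their partners. Some genes were named after their values were seen. These were the markers Foxj1, Mcidas, Myh7, Sftpc, Tnnt2, Upk3b, Lrrn4, Msln and Wt1. They were also the members Uqcr11, Ndufs3, Ndufs7, Ndufa10, Ndufa3 and Ndufa13. The members and lists were chosen with earlier results of these data known. Alternatives were other normalizations, spot rules, symbols, filters, variance priors, array weights, a replicate block and left-out arrays. Tables used Python 3.11.15 with numpy 2.4.6 and pandas 2.3.3, and plots matplotlib 3.10.9.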

Additional observations from a re-analysis of the deposited data

Results flagged for a closer look

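With 2 arrays a group, no search for a single outlying array within a group was possible. For 6 members the arrays of the groups compared separated in opposite directions in the 2 settings of a contrast, and for each the difference of the 2 effects was tested with limma. They were 3 of 83 for genotype (3.61%, against 7.9% of all genes) and 3 of 83 for AECII against AECI (3.61%, against 5.57% of all genes). Both experimental arrays were above both control arrays in AECII and below them in AECI for Cox8a, Ndufs3 and Ndufs7: the difference of the genotype effects was 0.51 for Cox8a (adjusted p = 0.67), 0.33 for Ndufs3 (adjusted p = 0.80) and 0.45 for Ndufs7 (adjusted p = 0.72). For Ndufs3 this held on its brightest spot only. Its other spot, with a mean of 8.86, differed by -0.71 in AECII and -0.21 in AECI, the same direction in both. AECII stood above AECI in experimental lungs and below it in control lungs for Ndufb6 (0.58, adjusted p = 0.65) and Ndufb9 (0.64, adjusted p = 0.63), and below it in experimental and above it in control lungs for Cox4i2 (-0.89, adjusted p = 0.54). None of the 6 passed the test of the difference.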

How the results depend on the processing

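The members called over both genotypes for AECII against AECI numbered 1 (Ndufc2) as reported, 0 with cyclic loess, the second brightest spot, a robust prior, array weights, the replicate block, the crossed replicate block, both arrays of male pattern left out, or any 1 array left out, 2 with only genes above the median of all spots (Ndufc2 and Ndufab1) and 7 with a mean-variance trend (Ndufc2, Ndufab1, Cox7a2, Ndufb5, Ndufb2, Uqcr11 and Ndufa12). The adjusted p of Ndufc2 ran from 0.000206 to 0.193 over these settings, with differences of 0.64 to 0.72. For AECII against AECI in experimental lungs the count was 0 as reported, 1 above the median of all spots and 4 with the trend; in control lungs it was 3 with the trend; for genotype over both populations it was 2 with the trend (Sdhc and Atp5g1, adjusted p = 0.0169 and 0.0472). Over all genes these settings also moved the calls: for AECII against AECI over both genotypes 2021 genes were called as reported, 3316 above the median of all spots and 3651 with the trend, and for genotype over both populations 1, 10 and 324. The setting above the median of all spots kept 15318 genes, those whose highest group mean was above it. A gene could thus pass through a single group, unlike the 13650 genes chosen above by their 8-array mean. For genotype the trend called 74 genes in AECI and 61 in AECII, against 1 and 0 as reported. For AECII against AECI the reported counts of 618 in experimental and 689 in control lungs became 2222 and 1478 above the median of all spots, 2685 and 1920 with the trend, 334 and 386 with the second brightest spot, 276 and 311 with the replicate block, and 0 and 0 in a fit of only the 4 compared arrays or without both arrays of male pattern; that last setting called 87 over both genotypes.

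Centring each array on its median over genes put the all-gene median of the genotype difference in AECI at -0.08, against 0.04 as reported, and the members' median at -0.00042 in AECI, 0.17 in AECII and 0.13 over both populations; the mean of all spots gave 0.064 in AECI, and leaving out both arrays of male pattern gave 0.16 over both populations. Atp5g1 reversed with the mean of all spots (0.16 in AECII, 0.12 over both populations) and the second brightest spot (0.35 and 0.32); its other spots read the other way. With 1 array left out in turn, the members' median ranged 0.22 to 0.33 (genotype in AECII), 0.082 to 0.16 (genotype in AECI), 0.14 to 0.26 (AECII against AECI in experimental lungs), 0.019 to 0.098 (control lungs; the lowest without control AECI replicate 1), 0.083 to 0.17 (both genotypes), 0.17 to 0.25 (genotype over both populations) and 0.076 to 0.19 (difference of the genotype effects; the lowest without experimental AECII replicate 2). The cause of these changes was not tested.

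Across all genes, the correlation of same-numbered deviations between groups was -0.10 to 0.04. With 2 arrays a group, such values cannot decide whether samples of different groups came from the same lungs. The replicate block called 1464 genes for AECII against AECI over both genotypes, and the crossed numbers, tried after seeing the data, also left 0 members, with 1497 genes called. The 2 arrays per group limit what could be resolved.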
